A study of Mus musculus with 65 samples.

Results

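Saa3, Lcn2 and Serpina3n are 3 acute-phase genes, and their expression was followed in the retinas of 65 adult C57BL/6J mice. They were chosen by their levels in mice given lipopolysaccharide (LPS) and were found by symbol, so the set holds 3 of the 50686 genes in the count table, each with 1 Ensembl identifier. Bulk RNA of 1 library per mouse was sequenced in 16 groups. The CD group received vehicle and the control diet (n = 5), and 6 groups received the diet with PLX5622, an inhibitor of the CSF1 receptor that removes microglia, for 2 (DEP2), 5 (DEP5), 7 (DEP7), 10 (DEP10), 14 (DEP14) or 21 (DEP21) days. The repopulation groups were taken 3 (REPOP3), 5 (REPOP5), 7 (REPOP7), 10 (REPOP10), 14 (REPOP14) or 21 (REPOP21) days or 2 months (REPOP60) after PLX5622 was withdrawn. DEP5 held 3 mice, REPOP7 held 6, and the other depletion and repopulation groups held 4 each. LPS is a cell wall component of Gram-negative bacteria and was given systemically. LPSCD mice received LPS and vehicle (n = 3). LPSREPOP mice are labelled as given PLX5622 and LPS (n = 4) and stand in the study's methods as LPS challenged retinas after repopulation, for which the labels give no repopulation time.

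The total count ranged from 5106429 to 8760443 reads per mouse (median 7944665) and from 7457860 to 7837824 in the 7 LPS mice. The floor used here, 3 counts, is worth between 0.342 and 0.587 CPM, a gene's count divided by the total count of its mouse and put on the usual fixed scale. It covers counting error only. The sample titles end in RE (39 mice) or re (26 mice), and the labels do not say what this suffix means. All 7 LPS mice and all REPOP60 mice carried re, and CD held 3 RE and 2 re mice. A difference between LPSCD and CD is therefore also given against the re mice of CD alone, while LPSREPOP and REPOP60 share the suffix.

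Acute-phase genes are the genes whose products rise in blood and tissue within hours to days of infection or injury. In the liver and in barrier tissues they are induced by cytokines such as interleukin-6 and interleukin-1, whose receptors act through STAT3, NF-κB and C/EBP transcription factors. Saa3 encodes a serum amyloid A apolipoprotein that is made mainly outside the liver. Lcn2 encodes lipocalin 2, a secreted protein that binds bacterial siderophores and so withholds iron. Serpina3n encodes a secreted inhibitor of serine proteases and is widely used as a marker of reactive astrocytes. In the retina, reactive Müller glia and astrocytes are known sources of lipocalin 2 and of Serpina3n.

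On GRCm38, Saa3 (ENSMUSG00000040026) lies on chromosome 7 from 46711998 to 46715700 on the minus strand. Lcn2 (ENSMUSG00000026822) lies on chromosome 2 from 32384633 to 32388252 on the minus strand. Serpina3n (ENSMUSG00000021091) lies on chromosome 12 from 104406729 to 104414329 on the plus strand. In GENCODE M21 no other gene overlaps any of the 3. Their main coding transcripts hold 4 exons and 555 bases (Saa3-201), 6 exons and 915 bases (Lcn2-201) and 5 exons and 2064 bases (Serpina3n-201).

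The 3 genes put the LPS mice in nearly the same order (values below), so the sequence just upstream of each was read from RefSeq promoters (GRCm38.p6), and 3 of 3 symbols matched. The stretches below run 5′ to 3′ on the strand of the gene and leave out bases that lie in annotated exons. Positions count back from the transcription start, with -1 as the base just before it. Capitals mark a match to the C/EBP motif TTGCNNAA on either strand.
Saa3 upstream, chr7:46715701-46715926, minus strand, positions -250 to -25: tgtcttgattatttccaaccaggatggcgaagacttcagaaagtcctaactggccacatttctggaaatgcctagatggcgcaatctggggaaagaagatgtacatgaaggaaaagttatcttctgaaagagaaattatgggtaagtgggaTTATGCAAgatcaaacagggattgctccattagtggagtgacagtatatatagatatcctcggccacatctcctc
Lcn2 upstream, chr2:32387798-32387850, minus strand, positions -111 to -59: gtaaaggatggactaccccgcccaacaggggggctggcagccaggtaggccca
Serpina3n upstream, chr12:104406458-104406707, plus strand, positions -250 to -1: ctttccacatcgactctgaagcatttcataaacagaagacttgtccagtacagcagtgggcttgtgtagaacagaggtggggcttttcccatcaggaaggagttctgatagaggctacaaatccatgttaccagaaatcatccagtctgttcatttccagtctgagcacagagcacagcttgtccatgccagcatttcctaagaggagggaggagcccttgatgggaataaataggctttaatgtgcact

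Saa3 held 1 C/EBP match, from -99 to -92, on the strand opposite to the gene. Lcn2 held 1 match (TTGCTCAA, from -216 to -209), which falls in the 197 of 250 upstream bases that GENCODE places in exons and that are not printed. Serpina3n held none. Of 32851 mouse promoters of the same length, 9.56% hold this motif. The STAT motif TTCNNNGAA (7.02% of promoters), the kappaB motif (3.9%) and the TATA box TATAAA (12.4%), each searched on both strands, had no match in the 3 windows. A match is only a run of letters, and its absence says only that these letters are not in this window.

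Saa3 was nearly silent without LPS and was read in every LPS mouse. The 58 mice without LPS held 10 Saa3 reads in all, in 9 mice, and no mouse held more than 2. In LPSCD the Saa3 count was 23, 76 and 129 reads in mice 1, 2 and 3, or 3.04, 9.92 and 16.5 CPM. In LPSREPOP it was 47, 68, 107 and 11 reads in mice 1 to 4, or 6.22, 9.12, 13.98 and 1.44 CPM. Each of the 7 LPS mice thus lay above each of the other 58, and mice LPSCD 1 and LPSREPOP 4 were the lowest of the 7. The CD mice held 1 read together, and the ratio of summed reads between LPSCD and CD was 396 with a 95% exact Poisson interval of 70.3 to 15697, which covers counting error only. The REPOP60 mice held 3 reads, and the ratio for LPSREPOP was 77.1 (26.1 to 377). The 3 other serum amyloid A genes nearby on chromosome 7 stayed near 0 in the LPS mice, with 2 reads of Saa1, 1 of Saa2 and none of Saa4 over all 7.

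Lcn2 was expressed at a low level in every mouse without LPS. Its level there ran from 1.15 to 6.96 CPM with a median of 2.89 (n = 58). In LPSCD it was 7.28, 49.3 and 107 CPM in mice 1, 2 and 3. In LPSREPOP it was 19.3, 70.7, 66.5 and 6.17 CPM in mice 1 to 4. The mean was 54.4 ± 49.8 CPM (SD, n = 3) in LPSCD against 3.52 ± 1.17 CPM (SD, n = 5) in CD, a 15.4-fold difference of means. It was 40.7 ± 32.7 CPM (SD, n = 4) in LPSREPOP against 3.25 ± 0.988 CPM (SD, n = 4) in REPOP60, a 12.5-fold difference. The difference between LPSCD and CD depended on single mice. In log2(CPM + 1) it ran from 2.22 without LPSCD 3 to 4.07 without LPSCD 1. Every LPS mouse lay above every mouse of its reference group, and LPSREPOP 4 fell inside the range of the 58 mice, below 1 of them.

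Serpina3n had the widest range. Without LPS it ran from 1.87 to 11.5 CPM with a median of 4.68 (n = 58). In LPSCD it was 10.8, 37.6 and 177 CPM in mice 1, 2 and 3. In LPSREPOP it was 22.9, 73.3, 57.3 and 6.04 CPM in mice 1 to 4. The mean was 75.1 ± 89.2 CPM (SD, n = 3) in LPSCD against 3.14 ± 1.19 CPM (SD, n = 5) in CD, a 23.9-fold difference of means. It was 39.9 ± 30.9 CPM (SD, n = 4) in LPSREPOP against 3.02 ± 0.776 CPM (SD, n = 4) in REPOP60, a 13.2-fold difference. The difference between LPSCD and CD depended on single mice. In log2(CPM + 1) it ran from 2.41 without LPSCD 3 to 4.37 without LPSCD 1. The highest of the 7 LPS mice held 29.3 times the CPM of the lowest, against 17.3 times for Lcn2 and 11.4 times for Saa3. LPSREPOP 4 lay above all 4 REPOP60 mice but below 12 of the 58 mice without LPS, and LPSCD 1 lay below 1 of them.

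**Figure D1:**
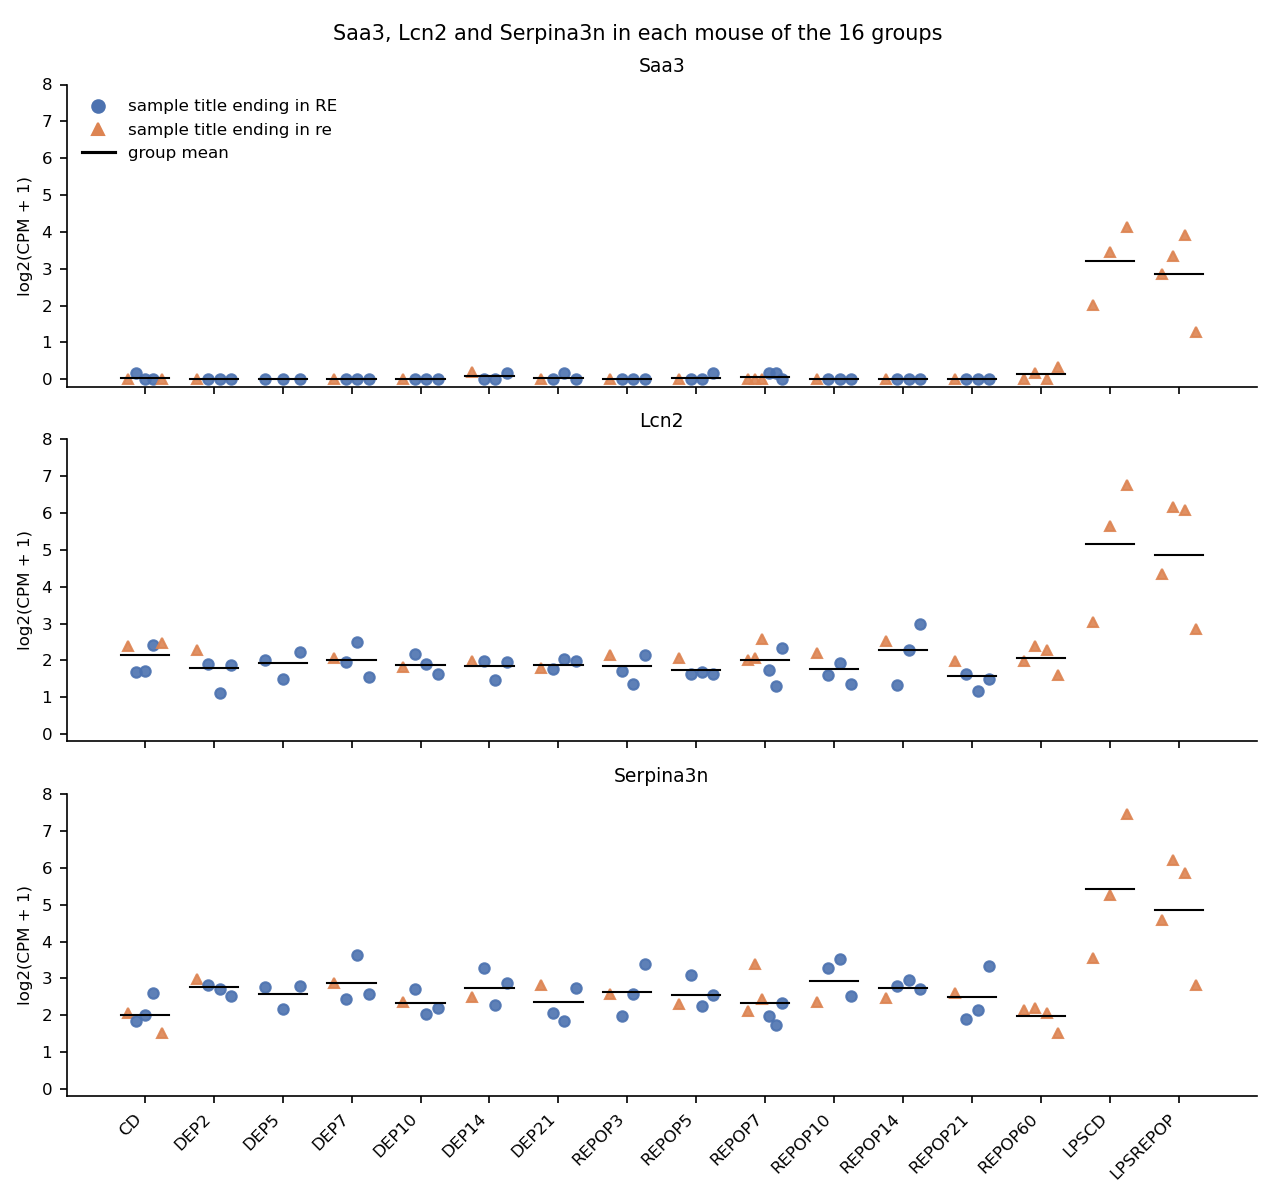
Levels of Saa3, Lcn2 and Serpina3n as log2(CPM + 1) on the y axis in each of the 65 mice, with the 16 groups on the x axis. Symbols give the suffix of the sample title and black lines the group mean. The 7 LPS mice carry the highest group means of all 3 genes, and LPSCD 1 and LPSREPOP 4 lie lowest among them.

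These values chose the genes, so the differences from the groups without LPS carry no test here. As background to the separation of the groups, 7.44% of 23606 genes tested had every LPSCD mouse above every CD mouse, and 4.5% of 24927 had every LPSREPOP mouse above every REPOP60 mouse. On the log2(CPM + 1) scale, which understates the change of low genes, LPSCD minus CD was 3.16 for Saa3, 3.02 for Lcn2 and 3.43 for Serpina3n. Against the 2 re mice of CD alone it was 3.20, 2.72 and 3.65. LPSREPOP minus REPOP60 was 2.72, 2.80 and 2.88.

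In FPKM, which the authors scaled by transcript length and which allows levels of different genes to be compared, Lcn2 was the highest of the 3 in each LPS mouse. Over the 7 LPS mice the FPKM of Lcn2 ran from 4.99 to 110 (median 55.3), that of Serpina3n from 3.09 to 86.3 (median 19.1) and that of Saa3 from 1.98 to 26.2 (median 13.8). Over the 58 other mice the median FPKM was 3.16 for Lcn2 and 2.47 for Serpina3n, while Saa3 was listed at 0 in the median mouse and at 0.0542 at most.

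LPSCD and LPSREPOP overlapped for all 3 genes. LPSREPOP minus LPSCD on the log2(CPM + 1) scale was -0.35 for Saa3 (pooled SD 1.11), -0.29 for Lcn2 (pooled SD 1.72) and -0.57 for Serpina3n (pooled SD 1.72), so each difference was smaller than the spread between mice of a group. Left out in turn, a single mouse moved these differences between -0.94 and 0.17 for Saa3, -1.34 and 0.51 for Lcn2 and -1.50 and 0.45 for Serpina3n. Across all genes, edgeR's quasi-likelihood test called none of 24500 between the LPS groups (0%), and 1973 genes had an unadjusted p under 0.05. Without LPSCD 1 the count was 86.

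The spread of the members between LPS mice is given as a description, since these mice chose them. The SD of log2(CPM + 1) over the 7 LPS mice was 1.03 for Saa3, 1.58 for Lcn2 and 1.60 for Serpina3n. The median SD of the 12347 genes with a mean of at least 5 CPM was 0.152. Lcn2 and Serpina3n are among those genes, and Lcn2 reaches that mean only through the LPS mice. Over the 58 other mice the SD was 0.0718 for Saa3, 0.384 for Lcn2 and 0.493 for Serpina3n, against a median of 0.191.

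The same mice were high or low in all 3 genes. LPSCD 3 had the highest level of each gene, LPSREPOP 4 the lowest and LPSCD 1 the next lowest. Lcn2 and Serpina3n put the 7 mice in 1 identical order (Spearman's rho 1, Pearson's r of log2(CPM + 1) 0.969). Saa3 correlated with Lcn2 at r = 0.963 (rho 0.893) and with Serpina3n at r = 0.946 (rho 0.893). LPSCD 1 and LPSREPOP 4, the 2 lowest mice in each gene, were then left out. Over the other 5 mice r was 0.888 for Saa3 and Lcn2, 0.835 for Saa3 and Serpina3n and 0.923 for Lcn2 and Serpina3n. These correlations describe 7 mice of 2 groups that share a title suffix, and levels of 3 genes in 1 library share its depth and composition.

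Without LPS the correlation was weak. Over 58 mice, Lcn2 and Serpina3n had r = 0.142 (rho 0.165). Within the 39 RE mice r was 0.315, and within the 19 re mice it was -0.0391. Saa3 had too few reads there for a correlation.

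**Figure D2:**
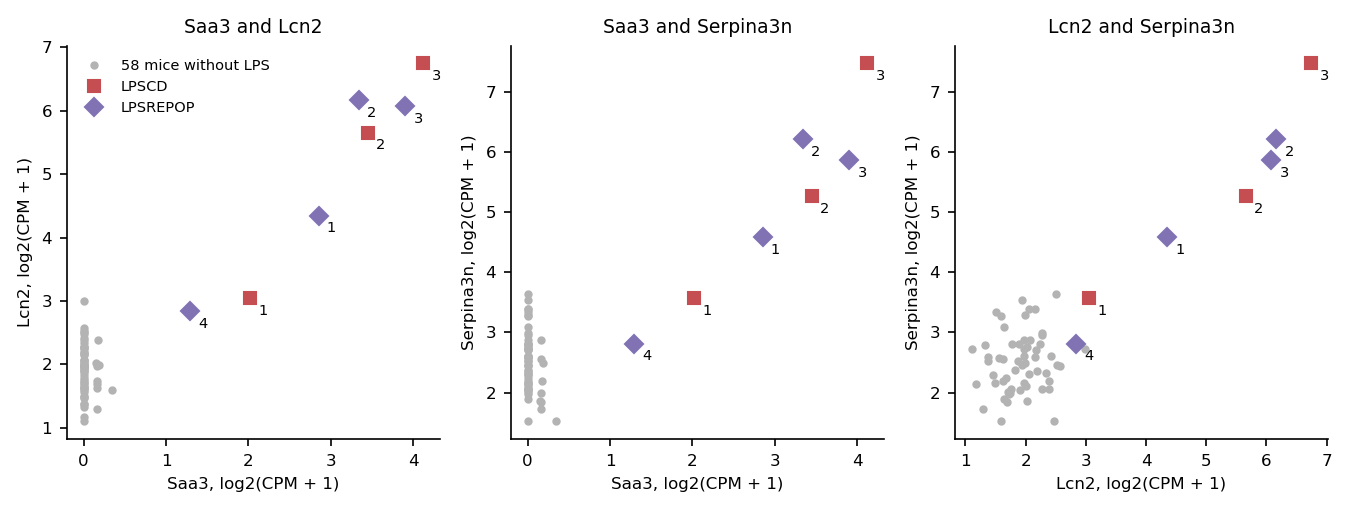
Each panel plots 1 pair of the 3 genes as log2(CPM + 1) on both axes, with LPSCD mice as squares, LPSREPOP mice as diamonds, numbered by replicate, and the 58 mice without LPS in grey. The LPS mice lie along a rising line in all 3 panels (r between 0.946 and 0.969), while the grey mice form a cloud in the panel of Lcn2 and Serpina3n (r = 0.142).

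Genes with a like pattern were sought next. By Pearson's r over all 65 mice among the 12347 genes, the 5 most like Saa3 were Vwf (0.928), Lcn2 (0.928), Igfbp7 (0.900), H2-D1 (0.900) and Selenbp1 (0.895). Vwf encodes von Willebrand factor of endothelial cells, and its level was 10.4 CPM in CD and 36.8 to 80.8 CPM over the LPS mice. The 5 most like Lcn2 were Clu (0.925), Selenbp1 (0.913), H2-D1 (0.909), Irf7 (0.888) and Eef2 (0.887). Clu encodes the secreted chaperone clusterin, which stood at 501 CPM in CD and at 551 to 1211 CPM over the LPS mice. The 5 most like Serpina3n were C4b (0.919), Chil1 (0.900), Clu (0.885), Serping1 (0.884) and A2m (0.865), which include complement C4, the C1 inhibitor and the protease inhibitor alpha-2-macroglobulin. These are descriptions over 65 mice in which the LPS mice set most of the range. Within the 7 LPS mice alone, r ranged from 0.785 (Eef2 with Lcn2) to 0.992 (Clu with Serpina3n).

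With the LPS mice left aside, the neighbours of Lcn2 were other genes and those of Serpina3n were partly the same. Over the 58 mice, Serpina3n was most like C4b (r = 0.767), A2m (0.707), Gfap (0.638), Serping1 (0.524) and Osmr (0.510), and 3 of these, C4b, A2m and Serping1, are also in its list over 65 mice. Gfap encodes a glial filament protein, and Osmr the oncostatin M receptor. Lcn2 was most like Ctsd (0.698), G6pdx (0.693), Sf3b5 (0.684), Kyat1 (0.683) and AI837181 (0.683), none of which is in its list over 65 mice.

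The wider acute-phase pathway was described with 65 other genes in 7 lists, from plasma proteins to transcription factors. These genes are not the members and were tested, but the lists were drawn up with results of these mice known, so the test is no independent evidence. Calls from edgeR's quasi-likelihood test needed both an absolute log2 fold change above 1 and an FDR (Benjamini-Hochberg) below 0.01. Of all genes tested, 0.165% were called in LPSCD against CD (39 of 23606, 0.161% higher) and 0.437% in LPSREPOP against REPOP60 (109 of 24927, 0.393% higher). In each comparison 51 of the 65 pathway genes passed the filter on low counts. Of them 1 was called higher in LPSCD and 6 in LPSREPOP, and none was called lower in either. The median log2 fold change of the tested pathway genes was 0.77 in LPSCD against 0.01 for all genes, and 0.58 in LPSREPOP against -0.01 for all genes. The lower count in LPSCD depended on single mice. It was 9 without LPSCD 1, 7 without LPSCD 2, 2 without CD 1 or CD 2M and 0 without LPSCD 3, and adding the title suffix to the fit left 0. The log2 fold change of C3, the gene lost, was 3.35 with the suffix and 2.74 without LPSCD 3, against 3.17 with all mice and no covariate. The count in LPSREPOP was 3 without REPOP60 1 and 1, C3, without REPOP60 4. Between LPSREPOP and LPSCD none of 52 tested pathway genes was called, with a median of -0.31 against 0.01 for all genes.

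The called genes were complement components, protease inhibitors and 1 metalloreductase. C3, the central complement component, was called in both comparisons. Its level was 5.69, 19.8 and 25.8 CPM in LPSCD mice 1, 2 and 3 against a mean of 1.84 in CD (log2 fold change 3.17 ± 0.40 SE, edgeR FDR = 0.00194). In LPSREPOP mice 1 to 4 it was 18.0, 33.7, 53.7 and 3.81 CPM against 1.40 in REPOP60 (4.25 ± 0.52 SE, FDR = 1.14e-05). C3 was thus also lowest in LPSCD 1 and LPSREPOP 4, but highest in LPSREPOP 3 rather than LPSCD 3. C4b, a complement C4 gene whose count is uncertain beside its near-identical neighbour C4a, rose by 2.22 ± 0.32 on the log2 scale in LPSREPOP. Serping1, the C1 inhibitor, rose by 1.57 ± 0.24 and A2m by 1.52 ± 0.25. Steap4, which reduces iron and copper ions, rose by 3.56 ± 0.64. The call of Steap4 was lost with filterByExpr and without any 1 of the 4 REPOP60 mice, and that of A2m with DESeq2, with all 16 groups in one fit and without REPOP60 1, 2 or 4 or LPSREPOP 3. The call of Serping1 was lost without REPOP60 1 or 4 and that of C4b without REPOP60 4. In LPSCD the log2 fold change was 2.24 ± 0.38 for C4b (FDR = 0.0108), 1.94 ± 0.35 for Serping1 (FDR = 0.0146) and 2.21 ± 0.46 for A2m (FDR = 0.0264), none of which was called.

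**Figure D3:**
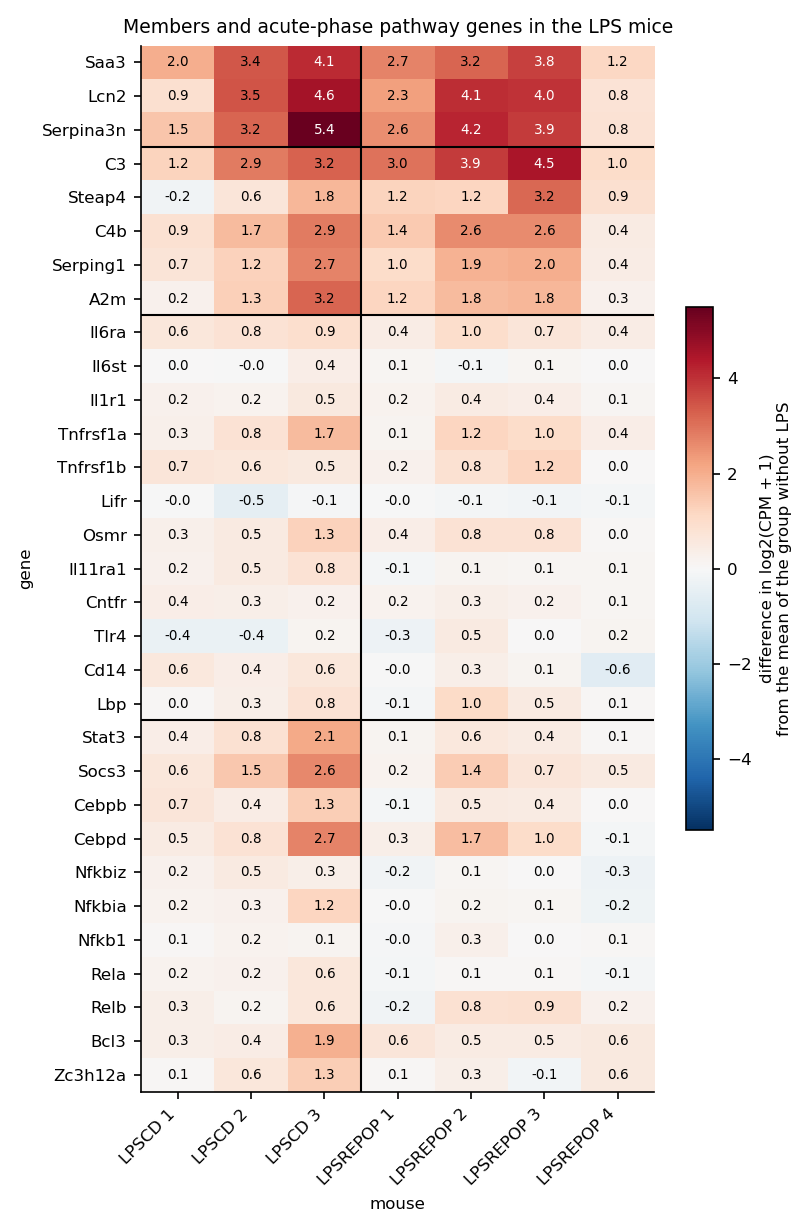
Difference in log2(CPM + 1) of each LPS mouse (columns) from the mean of its group without LPS (CD for LPSCD, REPOP60 for LPSREPOP), for the 3 members, 5 of the pathway genes called in a comparison, 12 receptors and 11 transcription factors and feedback genes (rows, separated by lines). Red is higher and blue lower, and the columns LPSCD 1 and LPSREPOP 4 are the palest in the upper 2 blocks.

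Several plasma acute-phase genes known from the liver were near or under the floor. Of the 6 serum amyloids and pentraxins only Crp and Ptx3 were tested in LPSCD, where their log2 fold changes were -1.89 ± 1.14 and -0.00 ± 0.33 (SE), and in LPSREPOP, where they were 0.34 ± 1.06 and 0.51 ± 0.40. Hp, the haemoglobin-binding haptoglobin, stood at 0.385 CPM in LPSCD and 0.227 CPM in CD, and Orm1 at 0.302 and 0.131 CPM. In LPSREPOP and REPOP60 Hp stood at 0.296 and 0.166 CPM and Orm1 at 0.0335 and 0.199 CPM. Cp, the copper-carrying ferroxidase ceruloplasmin, was the abundant member of its list. It stood at 205 CPM in LPSCD and 149 CPM in CD (log2 fold change 0.42 ± 0.20) and at 191 CPM in LPSREPOP and 126 CPM in REPOP60 (0.58 ± 0.10), under the fold threshold in both.

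None of the 9 inducing ligands was called. Osm had no read in any of the 4 groups compared, Tnf had 1 read over the 7 LPS mice, and Il6 stood at 0.0435 CPM in LPSCD, which is under the floor. Among those tested, Lif was at 0.953 CPM in LPSCD and 0.499 CPM in CD (log2 fold change 0.88 ± 0.44), and at 1.12 CPM in LPSREPOP and 0.464 CPM in REPOP60 (1.22 ± 0.45). Il11 was at 0.688 and 0.146 CPM in LPSCD and CD (2.06 ± 0.81) and at 0.299 and 0.101 CPM in LPSREPOP and REPOP60 (1.42 ± 0.98). By contrast, Il1a stood at 0.263 CPM in LPSCD and 0.523 CPM in CD, and Il1b at 0.0876 and 0.203 CPM. Their log2 fold changes were -0.998 ± 0.725 and -1.105 ± 1.001 in LPSCD, and 0.509 ± 0.497 and 1.195 ± 0.923 in LPSREPOP. Clcf1 gave 1.327 ± 0.911 and Cntf 0.229 ± 0.813 in LPSCD, and 0.462 ± 1.201 and -1.811 ± 0.749 in LPSREPOP. The labels give no interval between LPS and tissue collection.

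None of the 12 receptors was called. Il6ra, the interleukin-6 receptor, gave log2 fold changes of 1.44 ± 0.38 in LPSCD (FDR = 0.0534) and 1.34 ± 0.41 in LPSREPOP (FDR = 0.0795). Tnfrsf1a, a tumour necrosis factor receptor, gave 1.17 ± 0.27 (FDR = 0.0408) and 0.81 ± 0.20 (FDR = 0.02). Osmr gave 0.77 ± 0.22 and 0.56 ± 0.16. Il6st, the signalling chain shared by this receptor family, gave 0.10 ± 0.11 and 0.01 ± 0.06, and Tlr4, the receptor for LPS, was at 0.300 CPM in LPSCD and 0.455 CPM in CD and at 0.497 CPM in LPSREPOP and 0.365 CPM in REPOP60.

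None of the 11 transcription factors and feedback genes was called, and Stat3, Socs3 and Cebpd had their highest value in LPSCD 3, the mouse with the most Serpina3n. Stat3 was 91.7, 129 and 304 CPM in LPSCD mice 1, 2 and 3 against a mean of 71.5 CPM in CD (log2 fold change 1.26 ± 0.25, FDR = 0.0238). In LPSREPOP it lay between 78.7 and 113 CPM against 75.5 CPM in REPOP60 (0.30 ± 0.08, FDR = 0.0428). Socs3, the feedback inhibitor induced by STAT3, was 5.29, 10.4 and 24.6 CPM in LPSCD against 3.10 CPM in CD (2.08 ± 0.37, FDR = 0.0139). Cebpd, a C/EBP factor, was 10.5, 13.7 and 54.99 CPM against 7.36 CPM (1.81 ± 0.40, FDR = 0.0344). In LPSREPOP the changes were smaller, at 0.89 ± 0.22 for Socs3 (edgeR FDR = 0.0253) and 0.96 ± 0.26 for Cebpd (FDR = 0.0368). Nfkb1 gave 0.11 ± 0.13 in LPSCD and 0.06 ± 0.09 in LPSREPOP. Others in LPSCD were Bcl3 at 1.91 ± 0.55, Cebpb at 1.17 ± 0.34, Zc3h12a at 1.08 ± 0.35 and Nfkbia at 0.62 ± 0.20. Relb gave 0.48 ± 0.27, Rela 0.34 ± 0.13 and Nfkbiz 0.34 ± 0.15. The difference from CD or REPOP60 in log2(CPM + 1) was also largest in LPSCD 3 for Bcl3, Cebpb, Zc3h12a, Nfkbia and Rela. That of Nfkb1, Nfkbiz and Relb was largest in another LPS mouse.

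Iron genes, receptors and paralogs of the 3 members gave no call, where 0.165% (LPSCD) and 0.437% (LPSREPOP) of all genes tested were called. None of the 10 lipocalin partners and iron genes was called in either comparison. Slc22a17, a proposed lipocalin 2 receptor, stood at 212 CPM in LPSCD and 167 CPM in CD (log2 fold change 0.31 ± 0.13), and at 199 CPM in LPSREPOP and 199.7 CPM in REPOP60 (-0.03 ± 0.06). The ferritin chains gave 0.70 ± 0.15 (Ftl1, FDR = 0.0271) and 0.26 ± 0.12 (Fth1, FDR = 0.198) in LPSCD and 0.39 ± 0.07 (Ftl1, FDR = 0.00261) and 0.31 ± 0.05 (Fth1, FDR = 0.001) in LPSREPOP, all under the fold threshold. None of the 7 amyloid A receptors was called. Among the Serpina3 cluster of chromosome 12, Serpina3n held 2962 reads over the 7 LPS mice, and the next were the pseudogene Serpina3e-ps with 58, Serpina3g with 38 and Serpina3m with 32. In LPSCD against CD most paralogs of this cluster did not pass the filter on low counts and were not tested. Among those tested, Serpina3m gave 5.46 ± 1.47 (edgeR FDR = 0.0695) with no read in CD. Serpina3g gave 2.25 ± 0.78 (edgeR FDR = 0.112) and Serpina3h 0.30 ± 0.98. Reads of such near-identical copies can be split or lost in counting, and Serpina3m overlaps Serpina3k, so their levels are uncertain.

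In bulk RNA, more cells of a type and more RNA per cell cannot be told apart, so marker lists of 14 cell types are given beside the members. The retina label held, with the 8 photoreceptor markers all read and summing to 51893 CPM in CD. The 8 Müller glia markers, led by Glul, all had reads and summed to 3794 CPM in CD. In LPSCD they summed to 4035, 3755 and 2894 CPM in mice 1, 2 and 3, and LPSCD 3, with the most Serpina3n, lay below the range of the 58 mice without LPS (3495 to 4062 CPM). In LPSREPOP they summed to between 3734 and 4176 CPM, against 3780 CPM in REPOP60, and LPSREPOP 4, with the least of the members, lay above that range. Over the 7 mice the Müller sum had r = -0.757 with the mean of the 3 members, as did the photoreceptor sum. The 4 astrocyte markers, led by Gfap, summed to 35.8, 48.8 and 115 CPM in LPSCD mice 1, 2 and 3 and to 36.4, 78.6, 64.9 and 37.6 CPM in LPSREPOP mice 1 to 4, against 30.0 CPM in CD and 28.3 CPM in REPOP60. The range over the 58 mice was 25.9 to 52.6 CPM, which holds 4 of the 7 LPS mice. The astrocyte sum had r = 0.887 with the mean of the members over the 7 mice. Gfap alone was 12.04, 16.8 and 81.0 CPM in LPSCD and 7.02, 37.4, 27.2 and 11.8 CPM in LPSREPOP. Gfap was not called, at a log2 fold change of 1.67 ± 0.42 in LPSCD (FDR = 0.0503) and 1.08 ± 0.29 in LPSREPOP (FDR = 0.041). Aldh1l1, an astrocyte enzyme, was called in LPSREPOP (1.07 ± 0.15, FDR = 5.77e-05). The other markers were not called, S100b at -0.38 ± 0.21 in LPSCD and 0.08 ± 0.21 in LPSREPOP and Pax2 at 1.01 ± 0.38 and 0.51 ± 0.39. The part of cell number in the members' levels was not tested.

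Lists of reactive astroglia genes held single calls in LPSREPOP, where 0.437% of all genes tested were called. Of the 11 shared genes, Steap4 was called in LPSREPOP and none in LPSCD. Of the 11 genes of the set known from LPS-treated brain, Serping1 was called in LPSREPOP and none in LPSCD. Of the 12 genes of the other set, none was called. The median log2 fold changes of the 3 lists were 0.77, 0.78 and 0.99 in LPSCD and 0.91, 0.65 and 0.51 in LPSREPOP.

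Blood cell markers were low in CPM, but the neutrophil and monocyte sums of some LPS mice lay above every mouse without LPS. The 11 neutrophil markers all had at least 1 read in the LPS mice and summed to 6.75, 3.39 and 4.08 CPM in LPSCD and to 10.3, 2.68, 17.1 and 2.76 CPM in LPSREPOP, against 2.70 CPM in CD and 1.83 CPM in REPOP60. The range over the 58 mice was 0.379 to 5.67 CPM, and LPSCD 1, LPSREPOP 1 and LPSREPOP 3 lay above it. The most abundant neutrophil gene was Csf3r, and 3 of the markers, Ly6g, Mpo and Elane, held 1, 5 and 1 reads over all 7 mice. Lcn2 is also a granule gene of neutrophils. The neutrophil sum had r = 0.0918 with the mean of the members over the 7 mice, and its part in their levels was not tested. S100a8 and S100a9, neutrophil calcium-binding proteins, were called in LPSREPOP, where they stood at 1.22 ± 1.24 and 2.27 ± 2.34 CPM (SD, n = 4) against 0 and 0.133 CPM in REPOP60. None of the other neutrophil genes was called in LPSREPOP. Ngp stood at 1.18 against 0.0992 CPM in REPOP60 (log2 fold change 3.36 ± 0.84, FDR = 0.0242), Csf3r at 2.34 against 0.831 CPM (1.46 ± 0.41, FDR = 0.0465) and Ltf at 0.460 against 0.0331 CPM (3.25 ± 1.19). Cxcr2, Retnlg and Elane were also higher by mean. By contrast Camp was at 0.330 against 0.533 CPM, Mpo at 0.0331 against 0.1003 CPM and Ly6g at 0 against 0.0663 CPM. The 9 monocyte and macrophage markers, led by Lyz2, summed to 3.04, 4.57 and 11.0 CPM in LPSCD and to 5.83, 11.4, 13.6 and 9.06 CPM in LPSREPOP, against 1.17 CPM in CD and 1.87 CPM in REPOP60. Over the 58 mice this sum ran from 0.370 to 6.06 CPM, and LPSCD 3 and LPSREPOP 2, 3 and 4 lay above that range. Lyz2 was called in LPSREPOP (log2 fold change 2.51 ± 0.33). The 6 hepatocyte and serum markers, led by Trf, summed to a mean of 3.16 CPM in LPSCD against 2.99 CPM in CD and of 2.68 CPM in LPSREPOP against 1.63 CPM in REPOP60, with r = 0.567 with the mean of the members. Ahsg had no read in the LPS mice and Alb had 1.

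Sums of microglia and endothelium markers lay above those of CD. The 10 microglia markers all had reads and summed to 114, 123 and 130 CPM in LPSCD and to 95.7, 95.5, 107 and 69.1 CPM in LPSREPOP, against 64.4 ± 7.20 CPM (SD, n = 5) in CD and a range of 19.3 to 76.0 CPM over the 58 mice. In REPOP60 they summed to 57.0 CPM. The list did not move as a whole. C1qa, C1qb and C1qc, which encode complement C1q, were called higher in both comparisons and Ctss in LPSREPOP. The microglial genes P2ry12 (log2 fold change -0.41 ± 0.42 in LPSCD and -0.51 ± 0.49 in LPSREPOP), Siglech (-0.37 ± 0.48 and -1.42 ± 0.52) and Tmem119 (0.32 ± 0.34 and 0.04 ± 0.39) were not called. The 8 endothelium markers summed to between 433 and 504 CPM in the LPS mice against 385 CPM in CD, 376 CPM in REPOP60 and a range of 310 to 450 CPM over the 58 mice, which holds LPSCD 3. Vwf and Cldn5 were called higher in both comparisons and Pecam1 in LPSCD. Kdr, the most abundant of the list, gave -0.27 ± 0.13 in LPSCD and -0.13 ± 0.07 in LPSREPOP, and Tek gave 0.07 ± 0.23 and 0.32 ± 0.16, none of them called. The 5 pericyte markers, led by Rgs5, summed to 114, 108 and 102 CPM in LPSCD mice 1, 2 and 3 against 107 ± 7.10 CPM (SD, n = 5) in CD, and to between 115 and 128 CPM in LPSREPOP against 86.4 CPM in REPOP60. With the title suffix in the fit no gene at all was called in LPSCD against CD, so the calls of the C1q and vessel genes in that comparison end. The red blood cell markers summed to between 0.265 and 4.83 CPM in the LPS mice against 6.83 CPM in CD and 5.32 CPM in REPOP60, and Hbb-bs was called lower in LPSREPOP. The 7 ciliary body or leptomeninges markers, led by Igf2, summed to between 92.2 and 131 CPM against 64.2 CPM in CD and 76.8 CPM in REPOP60. Ogn and Fmod of this list were called in LPSREPOP. The 7 pigment epithelium markers, led by Rgr, were highest in LPSCD 3 (29.9 CPM) and LPSREPOP 3 (32.1 CPM), inside the range of the 58 mice (4.87 to 34.96 CPM). Over the 7 mice the r with the mean of the members was 0.673 for pigment epithelium, 0.657 for microglia, 0.647 for ciliary body or leptomeninges, 0.533 for monocytes and macrophages and 0.0196 for endothelium. The part of these cells in the members' levels was not tested.

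**Figure D4:**
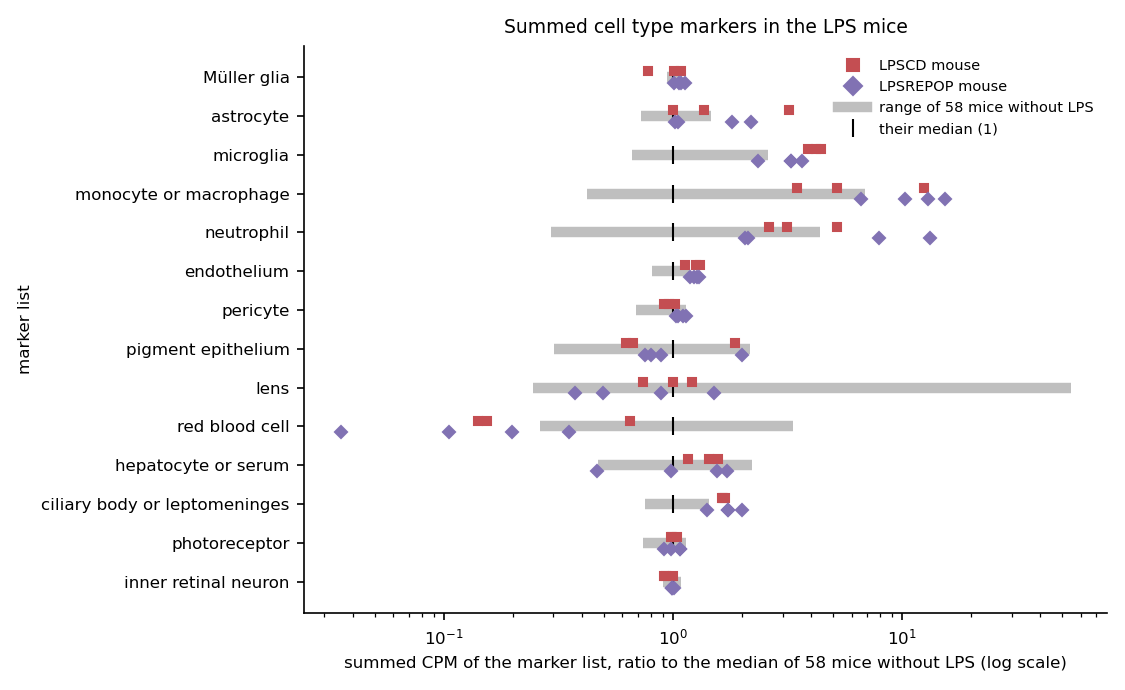
Summed CPM of each of 14 marker lists in the 7 LPS mice, as the ratio to the median of the 58 mice without LPS on a log axis, with grey bars for the range of those 58. LPSCD mice are squares and LPSREPOP mice diamonds. Microglia sums lie above the grey bar in 6 of 7 LPS mice, and the astrocyte sum of LPSCD 3 is the highest of its row at 115 CPM.

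The members were next tested in the 13 depletion and repopulation groups against CD. CD and REPOP60 are the reference groups of the LPS differences that chose the genes, so these tests are not independent of that choice. All 13 comparisons share the 5 CD mice. None of the tests was called for any member. Saa3 had enough mice with reads to be tested only in DEP14 and REPOP60, which makes 28 tests of 39. DESeq2 called none either, and the unadjusted edgeR p was under 0.05 in 8 groups for Serpina3n and in 1 for Lcn2. Of all genes tested, between 537 of 23937 (REPOP14) and 3730 of 24157 (REPOP60) had an unadjusted edgeR p under 0.05. As background, DEP2 had 0.0334% of all tested genes called, DEP5 had 0.0345%, DEP7 had 0.0375%, DEP10 had 0.0376%, DEP14 had 0.0335% and DEP21 had 0.0337%. The share was 0.0377% in REPOP3, 0.0336% in REPOP5, 0.0594% in REPOP7 and 0% in REPOP10, REPOP14, REPOP21 and REPOP60. All of these calls were lower than in CD, and in the 9 comparisons with any call they included 6 or 8 of the 10 microglia markers.

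No difference of Lcn2 from CD passed the test during depletion or repopulation. By mean, REPOP14 was highest at 4.27 ± 2.26 CPM (SD, n = 4), followed by CD at 3.52 ± 1.17 (n = 5), REPOP60 at 3.25 ± 0.988, DEP7 at 3.18 ± 1.15 and REPOP7 at 3.17 ± 1.22 (n = 6). Then came DEP5 at 2.86 ± 0.973 (n = 3), DEP10 at 2.72 ± 0.598, DEP21 at 2.71 ± 0.353, REPOP3 at 2.69 ± 0.920, DEP14 at 2.65 ± 0.598 and DEP2 at 2.60 ± 1.11. REPOP10 stood at 2.503 ± 0.883, REPOP5 at 2.39 ± 0.514 and REPOP21 lowest at 2.04 ± 0.697. No neighbours in this order differed by more than their SD. The log2 fold change from CD was negative in 12 of 13 groups and lay between -0.82 ± 0.30 in REPOP21 (edgeR FDR = 0.513) and 0.29 ± 0.34 in REPOP14 (FDR = 0.993). The highest single mouse, REPOP14 mouse 4, had 6.96 CPM, between the 2 lowest LPS mice.

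Serpina3n was lowest by mean in CD and REPOP60 and somewhat higher in the groups between, none of which was called against CD. The contrast of CD and REPOP60 together with the groups between was not tested. The gene was chosen by its level in LPS mice against these same 2 groups, which favours low values in them. In CD mice 1, 2, 3, 4 and 2M (so numbered in the labels) Serpina3n was 3.16, 2.58, 3.02, 5.06 and 1.87 CPM. In DEP2 it was 6.91, 6.01, 5.61 and 4.78 CPM in mice 1 to 4, in DEP7 it was 6.30, 4.47, 11.5 and 4.99 CPM, and in REPOP10 it was 4.10, 8.72, 10.6 and 4.74 CPM. Of the 23 depletion mice 21 lay above the CD mean, and of the 30 repopulation mice 25 did. CD mouse 4 lay above the lowest mouse of DEP2, DEP7 and REPOP10, so these groups overlapped with CD. In the 4 REPOP60 mice it was 3.46, 3.57, 3.18 and 1.88 CPM, close to CD.

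By mean, REPOP10 (7.04 ± 3.13 CPM, SD, n = 4) and DEP7 (6.81 ± 3.20) had the highest Serpina3n outside the LPS groups. They were followed by DEP14 (5.88 ± 2.15), DEP2 (5.83 ± 0.885), REPOP14 (5.70 ± 0.931), REPOP3 (5.60 ± 2.76), DEP5 (5.09 ± 1.39, n = 3), REPOP21 (5.08 ± 2.86) and REPOP5 (5.03 ± 1.74). REPOP7 (4.42 ± 2.61, n = 6), DEP21 (4.36 ± 1.71), DEP10 (4.09 ± 1.04), CD (3.14 ± 1.19, n = 5) and REPOP60 (3.02 ± 0.776) came last. Again no neighbours in the order differed by more than their SD. The log2 fold change from CD was positive in 12 of 13 groups, between 0.37 ± 0.26 in DEP10 and 1.15 ± 0.31 in REPOP10 (FDR = 0.683), and was -0.08 ± 0.26 in REPOP60 (FDR = 0.908). In DEP7 it was 1.11 ± 0.30 (FDR = 0.917). An exact 2-sided permutation test of CPM gave p = 0.0317 for DEP2 and REPOP14 (higher than the CD mean in 4 of 4 mice each) and 0.248 after adjustment over 26 such tests. For DEP7, DEP14 and REPOP10 (also 4 of 4 mice each) this permutation test gave p = 0.0476, and again 0.248 after adjustment.

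Both the replicate number and the title suffix bear on these values. With the replicate number as a block the DEP7 difference was 0.94 ± 0.19 at an FDR of 0.000264, under the fold threshold of 1 and so still not called, and the DEP14 difference was 0.77 ± 0.20 at an FDR of 0.0472. With the title suffix as a covariate all 13 differences were positive, up to 1.07 in DEP7 (FDR = 0.0912), and the smallest FDR was 0.0456, in REPOP10. Among re mice, 5 of 5 depletion mice and 11 of 12 repopulation mice lay above both re mice of CD. Among RE mice, 9 of 18 depletion mice and 8 of 18 repopulation mice lay above all 3 RE mice of CD.

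**Figure D5:**
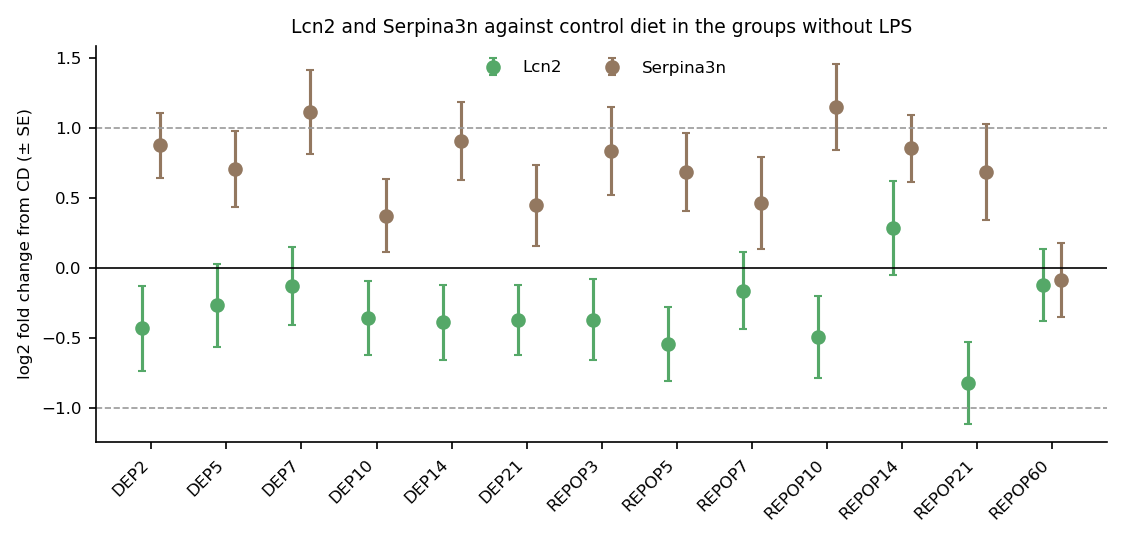
Log2 fold change from CD (y axis) with its standard error for Lcn2 and Serpina3n in the 13 groups without LPS (x axis), from edgeR with the 5 CD mice shared by all comparisons. Dashed lines mark a log2 fold change of 1 in either direction. Serpina3n lies above 0 in 12 groups and Lcn2 below 0 in 12 groups, and no point was called.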

How the data were processed

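Per the study's methods and the labels, 50-base single-end reads of retinal RNA were filtered, aligned to mm10 with HISAT2 and counted per gene with HTSeq, and versions, annotation and strand setting are not given in the sources used here. The labels name polyA selection, and the methods allow either that or removal of rRNA. The deposited counts are these whole numbers without normalization, and the deposited FPKM values are the authors' StringTie estimates, 1 row of which holds no values. Symbols came from GENCODE M21 (50376 of 50686 identifiers). CPM is the count over the total count of the mouse. Each of 16 comparisons was fitted in edgeR 4.0.16 (R 4.3.3) by the quasi-likelihood F test with its own 2 groups, TMM and no covariate, on genes that had 1 read or more in 0.5 of the mice of either group. SE is the log2 fold change over the root of F. The fits were tested on simulated data first. Alternatives were DESeq2 1.42.0, RLE, filterByExpr, no filter, the title suffix covariate, the replicate block, all 16 groups in one fit, no fold threshold, each mouse left out, a pseudocount of 0.1 in place of 1, FPKM and TMM for the values, and, added after seeing the data, exact permutation tests. The study's methods mention a batch term, but the batches are not named, so the fits have none.

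Replicates are separate mice. The members and lists were chosen with earlier results of these data known. Named genes are the members, called genes of the lists (at most 8 per list), the ligands, receptors and transcription factors, the leading genes of marker lists, and the 5 most alike genes. Genes given outside this rule (Hp, Orm1, Cp, Crp, Ptx3, Slc22a17, Ftl1, Fth1, P2ry12, Siglech, Tmem119, Tek, S100b, Pax2, Camp, Mpo, Ly6g, Elane, Ngp, Ltf, Cxcr2, Retnlg, Ahsg, Alb) were chosen after their values were seen. Read totals or log2 fold changes of neighbours of the members (Saa1, Saa2, Saa4, Serpina3e-ps, Serpina3g, Serpina3h, Serpina3m) are also given outside this rule. Replicate numbers paired mice by the check used here (each same-numbered pair correlated over 0.1 across 12347 genes) in DEP2, DEP7, DEP10, DEP14, REPOP3, REPOP5, REPOP10 and REPOP21 against CD, and in no LPS comparison. No mouse was left out. Some genes that enter the counts and sums are not reported here by name.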

Additional observations from a re-analysis of the deposited data

Results flagged for a closer look

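In 29 sets of mice, each 1 member in 1 group, the highest and lowest mouse were compared with the others by Dixon's test, and 3 stood apart. Chance gives about 1 such flag in 20 sets. Lcn2 in DEP14 mouse 3 was 1.76 CPM, below the next mouse at 2.91 CPM. Lcn2 in REPOP5 mouse 1 was 3.16 CPM, above the next at 2.19 CPM. Serpina3n in REPOP7 mouse 2 was 9.53 CPM, above the next at 4.40 CPM. No LPSREPOP mouse stood apart by this test, and groups of 3 mice, LPSCD among them, were not tested.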

How the results depend on the processing

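Each choice was changed by itself. The members were called in no depletion or repopulation group under any alternative run. The pathway count in LPSCD against CD (1) was 6 with DESeq2, 10 without a gene filter, 0 with the title suffix covariate, 5 with the replicate block, 11 with all 16 groups in one fit, and 0 to 9 when each mouse was left out. The count of all genes there (39) was 152 with DESeq2, 17 with filterByExpr, 311 without a filter, 0 with the suffix covariate, 96 with the replicate block, 301 in one fit, and 2 (without LPSCD 3) to 359 (without LPSCD 1) when each mouse was left out. In LPSREPOP against REPOP60 the pathway count (6) ran from 1 to 7 when each mouse was left out, and the replicate block gave 6. The count of all genes (109) was 68 with filterByExpr, 179 without a filter, 65 in one fit, 326 with no fold threshold, and 38 to 171 when each mouse was left out. Between LPSREPOP and LPSCD the pathway count (0) ran from 0 to 1 and the count of all genes (0) from 0 to 86 (without LPSCD 1) when each mouse was left out. The latter was 1 without a filter and 6 in one fit. The suffix covariate could not be fitted for the last 2 comparisons, whose mice are all re. Causes were not tested.

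With a pseudocount of 0.1 the Saa3 difference was 6.11 in LPSCD and 5.12 in LPSREPOP. The correlation of Saa3 and Serpina3n was 0.835 without LPSCD 1 and LPSREPOP 4. Paired by replicate number (replicate block), LPSREPOP minus LPSCD was 0.17 for Saa3, 0.38 for Lcn2 and 0.12 for Serpina3n, over 3 pairs. Numbers do not pair mice in the LPS comparisons (pair correlations from -0.124 to 0.205). The log2 fold change of Lcn2 from CD changed sign in REPOP7 with the replicate block (0.024). When each mouse was left out it ran from -0.386 to 0.035 in DEP7 (positive without DEP7 mouse 4), from -0.064 to 0.562 in REPOP14 (negative without mouse 4) and from -0.277 to 0.040 in REPOP60 (positive without REPOP60 mouse 4). That of Serpina3n in REPOP60 ran from -0.219 to 0.158, positive without CD mouse 4 (0.158) or REPOP60 mouse 4 (0.080), and was 0.263 with the suffix covariate. Depth limits Saa3 most, at 0 to 2 reads per mouse without LPS.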
